A study of Homo sapiens with 30 samples.

Results

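The genes described here are 58 transcription factor genes of 5 families that direct cells into lineages: 13 SOX genes, 11 T-box genes, 5 GATA genes, 16 forkhead genes and 13 basic helix-loop-helix (bHLH) genes. They were taken from a fixed list of symbols, not from their signal, and were 58 of the 20098 protein-coding genes on chromosomes 1 to 22 and X. All of them lie on chromosomes 1 to 22, which hold 19229 protein-coding genes. For each gene a window of the gene span plus 5 kb on each side was searched for peaks. A promoter peak is a peak that overlaps the stretch within 1 kb of the transcription start site (TSS) by at least 1 bp, and the covered share is the percentage of the window under peaks.

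The peaks come from ChIP-seq of H3K27me3 and H3K9me3 in HEK293T cells, an established line of human embryonic kidney origin that stably expresses SV40 large T antigen. They received antisense oligonucleotides (ASOs), short synthetic strands that lower the level of a chosen RNA, and were fixed after 48 h. H3K27me3 was profiled with a negative control ASO (NC) and upon depletion of the long noncoding RNAs LINC00641 (ΔLINC00641) or SETD5-AS1 (ΔSETD5-AS1), and H3K9me3 with NC and upon depletion of LINC00662 (ΔLINC00662), to learn how these RNAs, found near the marks, bear on them. Each of these 5 ChIP groups had 3 replicates and a matched input group of sheared chromatin with 3 replicates, 30 samples in 10 groups. The headers name 1 ASO for LINC00641, 1 for SETD5-AS1 and a mix of ASOs for LINC00662. The replicates of a group were merged before peaks were called, so each group is 1 list with no replicate error, no test between lists could be made, and every difference below is a description of pooled lists. The lists hold no RNA, so neither the kidney identity of the cells nor the depletion of the target RNAs could be checked here.

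H3K27me3 is laid down by Polycomb repressive complex 2 and is known for broad domains over the CpG-rich promoters of developmental regulators that a cell type does not use. H3K9me3 is best known from heterochromatin, repeats and zinc finger gene clusters, and it also marks some lineage genes kept off outside their own tissue. SOX factors bind DNA through an HMG box, T-box factors through the T domain, GATA factors through zinc fingers, forkhead factors through a winged helix, and bHLH factors as dimers through a basic helix.

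To show what the marked DNA looked like, 200 bases centred on the summit are printed for the 4 genes with the largest −log10 q of a promoter H3K27me3 peak in NC, for OLIG3 and MYOD1, whose promoter peak was missing from a knockdown list, and for HAND2, whose promoter H3K9me3 peak was the strongest of these genes in NC. The stretch just upstream of the SOX2 TSS, with no peak, is added for contrast. Sequences are from GRCh37 (hg19), 5′ to 3′ on the strand of the gene, and capitals mark CG dinucleotides.
NEUROD1 (H3K27me3 summit in NC, upstream of the gene, chr2:182547727-182547926, minus strand): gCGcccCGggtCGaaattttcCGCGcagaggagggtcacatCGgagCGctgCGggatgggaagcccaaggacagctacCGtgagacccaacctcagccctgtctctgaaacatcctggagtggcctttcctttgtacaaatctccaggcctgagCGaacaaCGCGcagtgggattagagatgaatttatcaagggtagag
SOX21 (H3K27me3 summit in NC, coding exon, chr13:95364083-95364282, minus strand): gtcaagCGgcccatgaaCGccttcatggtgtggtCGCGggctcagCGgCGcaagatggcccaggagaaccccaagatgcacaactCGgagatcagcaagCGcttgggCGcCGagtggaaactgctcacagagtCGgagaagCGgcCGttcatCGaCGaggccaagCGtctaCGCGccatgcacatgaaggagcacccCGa
NEUROG3 (H3K27me3 summit in NC, coding exon, chr10:71332365-71332564, minus strand): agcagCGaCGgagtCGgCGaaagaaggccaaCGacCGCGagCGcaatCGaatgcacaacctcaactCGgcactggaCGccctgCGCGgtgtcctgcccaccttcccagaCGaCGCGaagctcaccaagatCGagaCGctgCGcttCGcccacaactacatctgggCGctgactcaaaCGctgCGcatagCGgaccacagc
SOX11 (H3K27me3 summit in NC, coding exon, chr2:5832922-5833121, plus strand): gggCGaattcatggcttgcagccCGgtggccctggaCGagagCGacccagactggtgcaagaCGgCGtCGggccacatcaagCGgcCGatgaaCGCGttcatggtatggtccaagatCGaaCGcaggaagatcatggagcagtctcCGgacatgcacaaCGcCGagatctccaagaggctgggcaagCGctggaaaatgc
OLIG3 (H3K27me3 summit in NC, upstream of the gene, chr6:137815701-137815900, minus strand): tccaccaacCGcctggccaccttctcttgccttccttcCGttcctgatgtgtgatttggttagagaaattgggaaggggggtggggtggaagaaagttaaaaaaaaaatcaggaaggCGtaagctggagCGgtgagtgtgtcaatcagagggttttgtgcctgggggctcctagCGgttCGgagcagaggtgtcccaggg
MYOD1 (H3K27me3 summit in NC, upstream of the gene, chr11:17740465-17740664, plus strand): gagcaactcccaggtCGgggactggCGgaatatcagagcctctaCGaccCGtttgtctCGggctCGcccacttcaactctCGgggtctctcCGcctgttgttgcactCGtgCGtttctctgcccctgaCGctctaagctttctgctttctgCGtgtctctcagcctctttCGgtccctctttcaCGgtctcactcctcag
HAND2 (H3K9me3 summit in NC, upstream of the gene, chr4:174451809-174452008, minus strand): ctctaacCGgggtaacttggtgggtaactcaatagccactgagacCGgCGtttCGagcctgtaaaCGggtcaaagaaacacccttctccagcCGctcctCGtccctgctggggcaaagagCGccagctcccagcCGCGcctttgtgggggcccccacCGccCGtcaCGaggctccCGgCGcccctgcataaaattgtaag
SOX2 (upstream of the TSS, no peak, chr3:181429513-181429712, plus strand): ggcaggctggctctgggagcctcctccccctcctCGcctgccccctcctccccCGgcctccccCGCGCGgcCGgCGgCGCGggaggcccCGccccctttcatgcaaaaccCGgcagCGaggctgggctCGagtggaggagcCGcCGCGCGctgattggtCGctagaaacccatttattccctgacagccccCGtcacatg
NEUROG3 held 24 CG and OLIG3 held 6, the most and the fewest of these stretches. The SOX2 stretch, which carried neither mark, held 19 CG, as many as SOX21. Of the 200-base windows centred on the TSS of all genes of chromosomes 1 to 22, 23% held at least as many CG as NEUROG3, 38.0% as SOX21, 57.4% as NEUROD1 and 72.2% as OLIG3. In NC the promoter summits of SOX11 and SOX21 lay over the exon that encodes the HMG box, and that of NEUROG3 over the exon that encodes the bHLH region.

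The lists held 102921 (H3K27me3 NC), 86099 (ΔLINC00641), 98401 (ΔSETD5-AS1), 84170 (H3K9me3 NC) and 60273 (ΔLINC00662) peaks. Fold enrichment is the number of fragments at a summit over the local input level, and both numbers could be recovered from it and the p-value. The genome-wide level, the lowest local level MACS2 used in a list, ran from 3.50 to 4.43 fragments. Between 27.9 and 31.3% of H3K27me3 peaks were on chromosome X, where none of the 58 genes lies, so background shares are over chromosomes 1 to 22. Intervals below are 95% intervals for counting error and cover nothing else.

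H3K27me3 lay over the promoters of 12, 10 and 13 of the 58 genes (NC, ΔLINC00641 and ΔSETD5-AS1). These are 20.7, 17.2 and 22.4% of the genes, beside 6.78, 7.15 and 6.55% of all genes of chromosomes 1 to 22. The same 10 genes carried a promoter peak in all 3 lists, namely the neural factors SOX11, SOX14 and SOX21, the T helper cell factor TBX21, the forkhead genes FOXA2, FOXC2 and FOXQ1, and the bHLH genes NEUROG3, NEUROD1 and ATOH1. Another 4 genes had one in some lists only (FOXB1, OLIG1, OLIG3 and MYOD1), and 44 had none in any. The map of H3K27me3 peaks around the TSS shows these 14 genes with NEUROD2 and FOXF1, whose peaks stopped just outside the promoter. When the summit had to lie inside the promoter, 9, 8 and 10 of the 58 genes were called, and ATOH1 in no list.

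**Figure D1:**
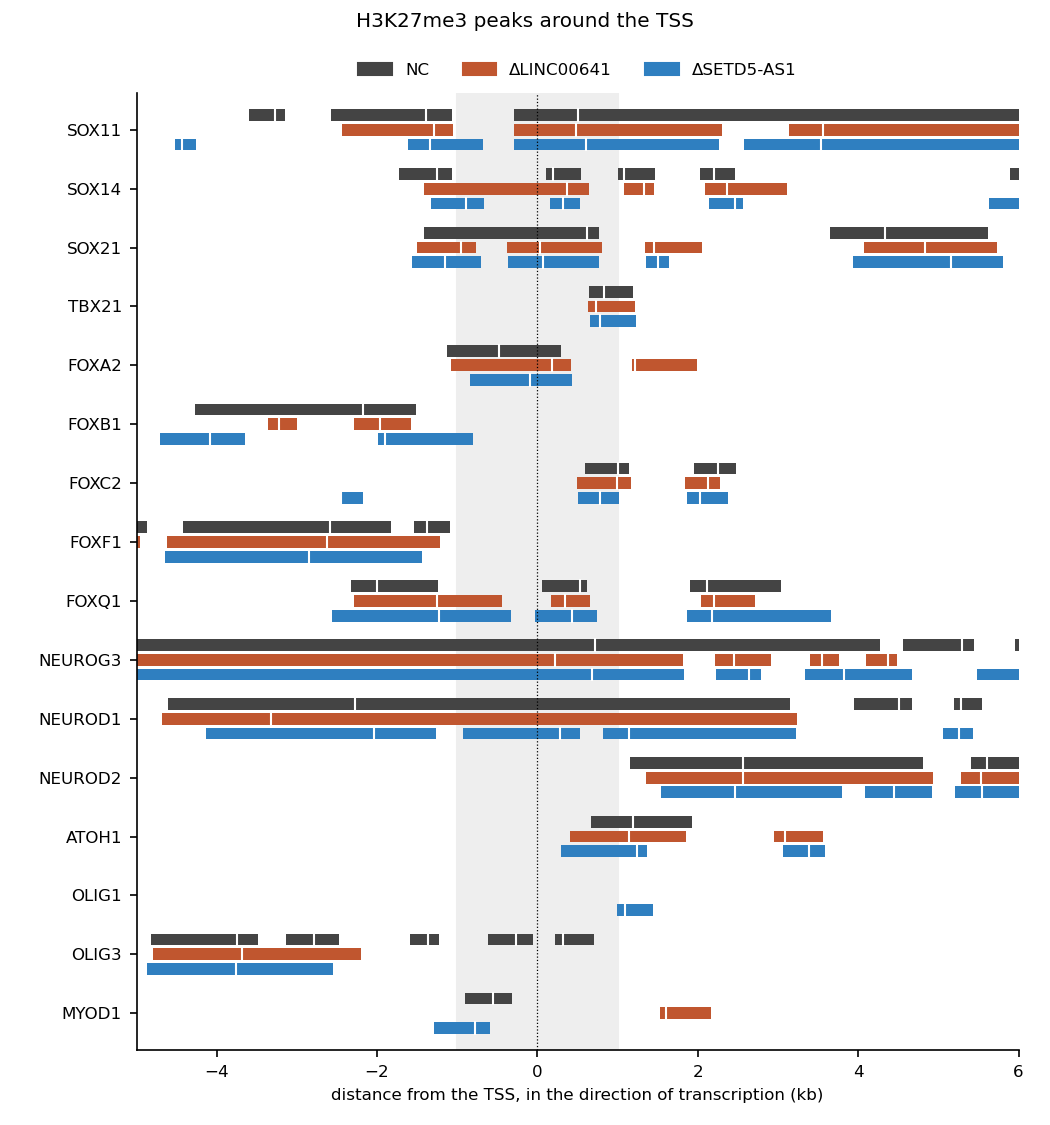
H3K27me3 peaks (bars) and their summits (white lines) by distance from the TSS in kb for 16 genes, 1 row per list; the grey band is the promoter, 1 kb on each side. NEUROG3, NEUROD1 and SOX11 were covered from upstream into the gene in all 3 lists, while the promoter peaks of OLIG3 (NC), OLIG1 (ΔSETD5-AS1) and TBX21 were short.

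Counted over the whole window, 18, 23 and 23 of the genes held at least 1 H3K27me3 peak in NC, ΔLINC00641 and ΔSETD5-AS1, against 14.6, 14.6 and 14.9% of all genes (31.0, 39.7 and 39.7% of the 58). More than 20% of the window was covered in 9, 9 and 8 of the genes, which is 15.5, 15.5 and 13.8%, beside 1.91, 1.60 and 1.70% of all genes. The windows of the 58 genes were shorter than usual, with a median of 15.3 kb against 37.6 kb. In windows of equal length for every gene, 5 kb on each side of the TSS, H3K27me3 peaks covered on average 8.91, 8.66 and 8.41% for the 58 genes and 1.92, 1.79 and 1.75% for all genes, a setting that was added after the data had been seen.

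The bHLH genes were the most densely marked family by covered share. Peaks covered 12.6, 11.3 and 11% of their windows in NC, ΔLINC00641 and ΔSETD5-AS1, against 4.05, 4.14 and 4.77% for forkhead genes, 0.838, 0.898 and 0.814% for SOX genes, 0.259, 0.521 and 0.467% for T-box genes and 0, 0.373 and 0.147% for GATA genes. The SOX share is held down by SOX5 and SOX6, whose windows are 1043041 and 783144 bp long. The bHLH share rests largely on NEUROG3, NEUROD1 and NEUROD2, which held 10926, 9279 and 7962 bp of 34.5 kb in NC. A promoter peak was present in NC for 5 of 13 bHLH genes, 3 of 16 forkhead genes, 3 of 13 SOX genes, 1 of 11 T-box genes and 0 of 5 GATA genes. In the same order the counts were 3, 3, 3, 1 and 0 in ΔLINC00641 and 5, 4, 3, 1 and 0 in ΔSETD5-AS1.

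NEUROG3, the factor that starts the endocrine programme of the pancreas, had the largest covered share of any gene of chromosomes 1 to 22 in NC. Its covered share was 93.2, 70.4 and 82.1% (NC, ΔLINC00641 and ΔSETD5-AS1, the order used below), which ranked it 1, 6 and 1 of 19229 genes. Its window is short, at 11725 bp, and a share of a short window is more easily large. By promoter fold it ranked 219, 146 and 72 of the 1304, 1374 and 1259 genes with a promoter peak. The promoter peak was 9810, 8323 and 7918 bp long with fold enrichments of 5.14, 6.40 and 5.83, so the peak was shorter in both knockdown lists while its fold was higher in both. The 3′ end of the NC peak, at 4271 bp from the TSS, was at 1812 and 1824 bp in the knockdown lists, where shorter separate peaks lay downstream of it.

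NEUROD1, which acts in neurons and pancreatic beta cells, had the highest fold of a peak reaching a bHLH promoter in NC, at a summit that lay at −2273 bp, outside the promoter itself. Among bHLH peaks with their summit inside the promoter, NEUROG3 was highest in NC. The strongest NEUROD1 promoter peak had folds of 5.78, 5.48 and 5.16, with summits at −2273, −3319 and 1142 bp, and the covered share was 41.2, 35.1 and 32.9%. A single peak of 7753 bp in NC and of 7919 bp in ΔLINC00641 spanned the TSS, whereas in ΔSETD5-AS1 that stretch was divided into peaks of 2875, 1467 and 2408 bp with folds of 5.68, 3.88 and 5.16. The first of these, with its summit at −2034 bp, lay where the NC summit was and ended short of the promoter, so near the NC summit the folds of NC and ΔSETD5-AS1 were close. Whether a stretch is called as 1 peak or several rests on short dips in signal, so peak numbers carry less than covered length here. NEUROD2, a factor of cortical neurons, was covered over 49.0, 51.5 and 46.0% of its window. Its nearest peak began 1152, 1356 and 1536 bp inside the gene, so it had no promoter peak in any list at the TSS used here. With any annotated TSS, or with a promoter of 2.5 kb, NEUROD2 had one in all 3 lists. Its longest peaks, of 6026, 6064 and 4082 bp, lay downstream of the gene.

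ATOH1, which specifies hair cells and cerebellar granule neurons, had promoter folds of 2.58, 2.89 and 3.97 with 27, 34 and 32 fragments at the summit. Its summits lay at 1186, 1145 and 1247 bp, outside the promoter itself in every list. ATOH1 was the weakest of the 3 bHLH genes marked in every list. Over the genome-wide level its summits stood at 7.01, 8.99 and 7.22, so the higher fold in ΔSETD5-AS1 went with a lower local input, at 1.65 times the genome-wide level against 2.56 in NC.

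OLIG3, which patterns dorsal spinal cord neurons, was the only one of the 58 genes whose promoter H3K27me3 peak was missing from both knockdown lists. In NC it had promoter peaks with folds of 3.23 and 2.88, from 23 and 22 fragments, next to a stronger peak of fold 5.0 further upstream. In ΔLINC00641 and ΔSETD5-AS1 only 1 peak remained, of 2604 and 2319 bp with folds of 3.27 and 3.33, and it ended at −2194 and −2545 bp. The covered share of OLIG3 was 28.1, 21.4 and 19.0%. MYOD1, the master factor of skeletal muscle, had the lowest promoter fold of the bHLH genes in NC, 2.39, with 23 fragments. Its promoter peak was present in ΔSETD5-AS1 with a fold of 2.98 and missing from ΔLINC00641, where a peak of fold 2.30 lay from 1531 to 2170 bp inside the gene. The lost promoter peaks were weak in NC, with −log10 q of 4.44 for OLIG3 and 2.53 for MYOD1, and neither passes a limit of 5. With a promoter of 2.5 kb on each side, both genes kept a promoter call in ΔLINC00641, and OLIG3 alone lost it in ΔSETD5-AS1.

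Among the other bHLH genes, OLIG1, an oligodendrocyte factor, had a promoter peak only in ΔSETD5-AS1, with a fold of 2.77 from 22 fragments. Its neighbour OLIG2, 44.2 kb away, had no peak of either mark in any list. TWIST1, a factor of mesenchyme, held 1015, 936 and 402 bp of H3K27me3, away from its promoter. NEUROG1, NEUROG2, HAND1 and HAND2 held no H3K27me3 peak in any list.

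The SOX genes with a promoter peak were the same 3 in every list. SOX11, a factor of immature neurons, had the highest promoter fold of all 58 genes in NC, 6.79, and stood at 5.59 and 5.15 in the knockdown lists. Its summits held 42, 50 and 44 fragments, 10.9, 13.2 and 9.92 times the genome-wide level. Local input at these summits was 1.38, 2.15 and 1.75 times the genome-wide level. The NC peak ran from −290 to 6256 bp. In ΔLINC00641 and ΔSETD5-AS1 its 3′ part was a separate peak outside the promoter, with folds of 7.96 and 4.38 from 58 and 43 fragments. The covered share of SOX11 was 48.0, 40.0 and 44.3%.

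SOX21, a SOXB2 factor that favours neuronal differentiation, had promoter folds of 5.22, 3.10 and 3.14. Its strongest promoter summits, at 616, −953 and 64 bp, held 58, 59 and 63 fragments, 15.1, 15.6 and 14.2 times the genome-wide level. The local input at these summits stood at 2.67, 4.86 and 4.37 times the genome-wide level. The part of the input in the lower folds was not tested. The covered share was 32.2, 33.2 and 32.1%, nearly equal in the 3 lists. SOX14, the related SOXB2 gene of interneurons, had the lowest promoter fold of the family in NC, 3.44, with 3.38 and 3.83 in the knockdown lists. Its strongest signal lay downstream of the gene, where a peak had folds of 8.05, 4.16 and 4.77 from 50, 53 and 51 fragments.

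Of the other SOX genes, SOX6 held short H3K27me3 peaks inside the gene in all 3 lists, and SOX5 in both knockdown lists. The remaining 8 held none in any list. SOX2, the pluripotency and neural stem cell factor, had its nearest H3K27me3 peak in any list at −660395 bp (ΔLINC00641). SOX1, a neural gene, had its nearest peak at −8404, −8254 and −8471 bp, outside its window.

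**Figure D2:**
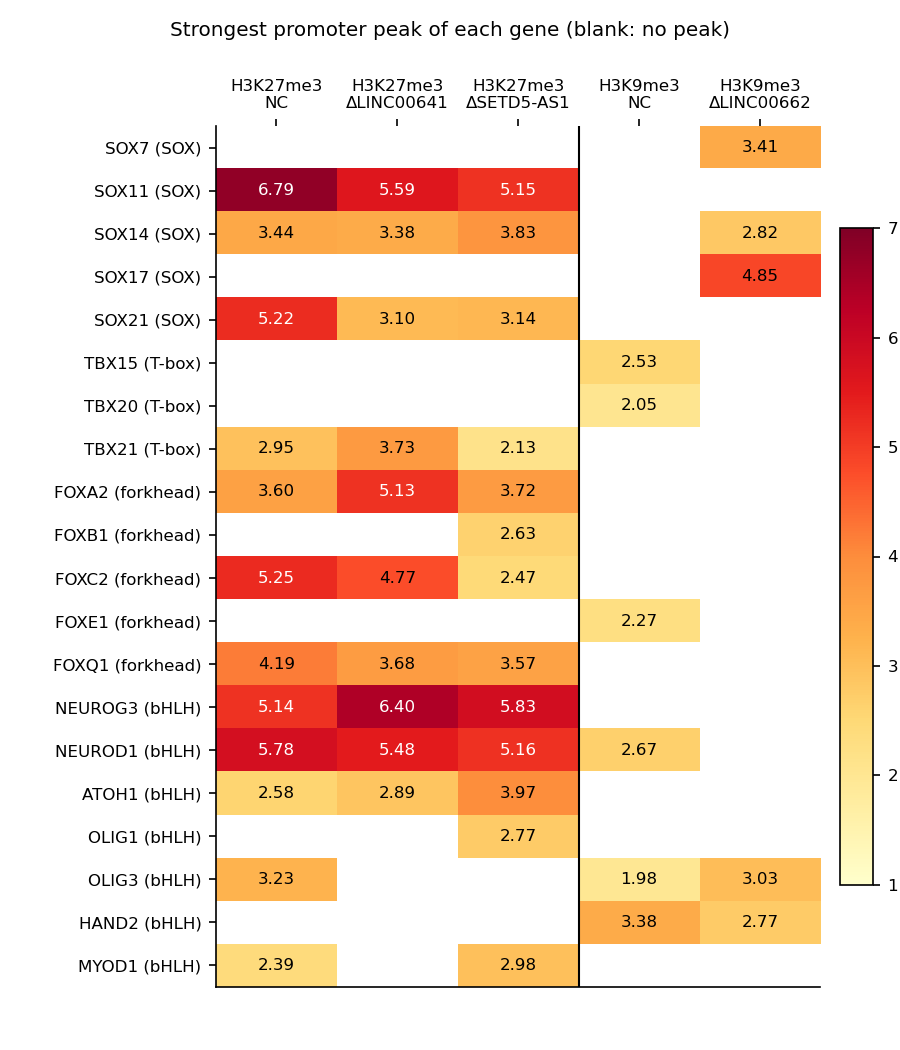
Fold enrichment over local input of the strongest promoter peak of each of the 20 genes with a promoter peak in any list (rows, family in brackets), by list (columns); blank cells had no promoter peak. The H3K27me3 columns are filled for the same 10 genes in all 3 lists, with folds from 2.13 to 6.79, while only OLIG3 and HAND2 are filled in both H3K9me3 columns.

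Among forkhead genes, FOXC2, which acts in lymphatic vessels and mesenchyme, had the highest promoter fold in NC, at a summit 1005 bp past the TSS and so just outside the promoter, and FOXA2, a pioneer factor of endoderm, the lowest. FOXC2 stood at 5.25, 4.77 and 2.47, and its log2 ratio of ΔSETD5-AS1 to NC, −1.09, was the lowest at any of these promoters. Its summits held 33, 37 and 27 fragments with local input at 1.42, 1.84 and 2.33 times the genome-wide level. Relative to the genome-wide level, the fragment ratio of ΔSETD5-AS1 to NC was 0.711 (95% interval 0.411 to 1.22), which includes 1. A FOXC2 peak further inside the gene had folds of 3.07, 3.11 and 3.97, and the covered share was 8.34, 8.60 and 10.2%. FOXA2 had folds of 3.60, 5.13 and 3.72 from 34, 48 and 30 fragments, and its ratio of ΔLINC00641 to NC was 1.44 (0.908 to 2.30), which also includes 1.

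FOXQ1, an epithelial forkhead gene, had promoter folds of 4.19, 3.68 and 3.57 and covered shares of 22, 23.7 and 38.0%. The larger share in ΔSETD5-AS1 came with longer peaks on both sides of the TSS, of 2232 bp upstream and of 1804 bp from inside the gene to past its 3′ end. FOXB1, a gene of the hypothalamus and midbrain, had a promoter call only in ΔSETD5-AS1, of fold 2.63 from 22 fragments. In NC and ΔLINC00641 its nearest peaks ended at −1509 and −1577 bp, and in ΔSETD5-AS1 at −806 bp, so this call rests on the position of a peak edge. FOXF1, of lung and gut mesenchyme, was covered over 21.3, 23.2 and 21.5% of its window by peaks that lay upstream only, with nearest edges at −1096, −1210 and −1436 bp. FOXL1, 9.54 kb from FOXC2 and 65.8 kb from FOXF1, had no peak in its own window. FOXD1 and FOXD2 each held 1 H3K27me3 peak in a knockdown list only, and the remaining 9 forkhead genes held none in any list.

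TBX21, which encodes T-bet, was the only T-box gene with a promoter H3K27me3 peak. The peak lay in the gene from 639, 632 and 652 bp past the TSS, with folds of 2.95, 3.73 and 2.13 from 31, 37 and 25 fragments. TBX5, a heart and forelimb gene, held 766, 1301 and 1469 bp of H3K27me3 away from its promoter. TBX1 and EOMES held a peak only in ΔLINC00641, TBX15 only in ΔSETD5-AS1, and the other 6 T-box genes held none. Among GATA genes, GATA3, a T cell and kidney duct factor, held 828 bp in ΔLINC00641 and 327 bp in ΔSETD5-AS1 and none in NC, with folds from 2.26 to 2.86. GATA2, GATA4, GATA5 and GATA6 had no H3K27me3 peak in any list.

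**Figure D3:**
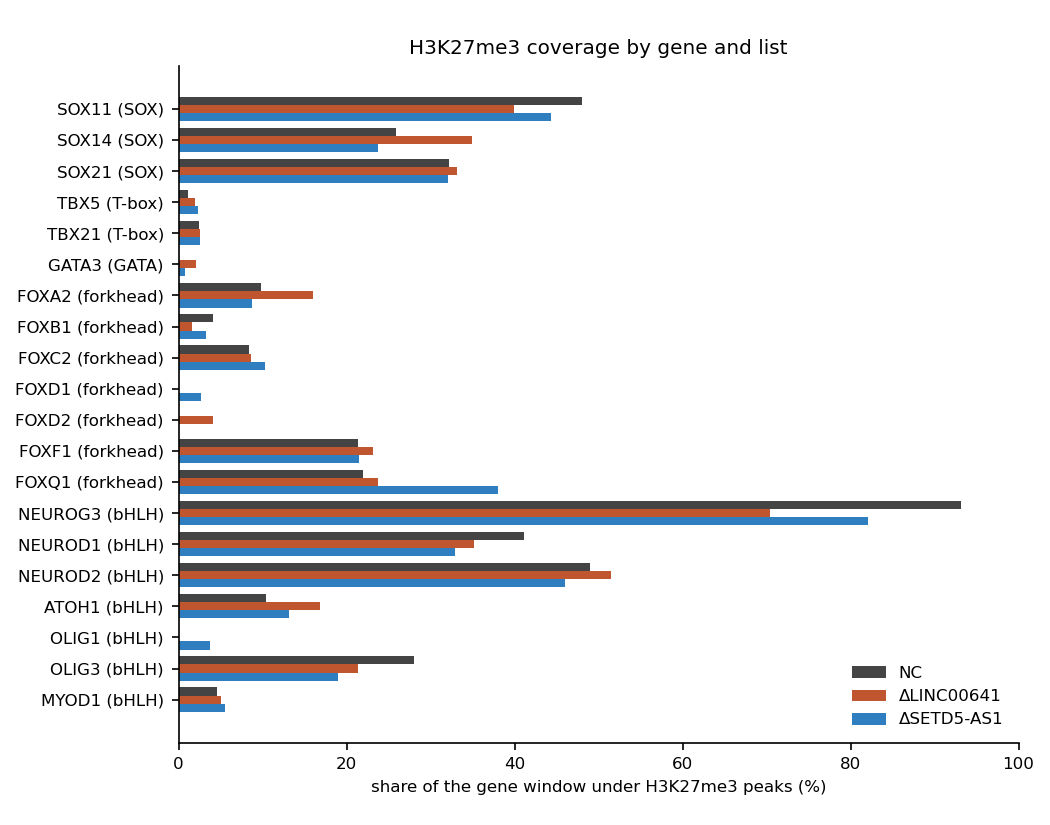
Share of the gene window under H3K27me3 peaks (horizontal axis, %) for the 20 genes with more than 2% in any list, 1 bar per list. NEUROG3 reached 93.2% in NC, NEUROD2 and SOX11 lay between 40.0 and 51.5% in all lists, and the T-box and GATA genes stayed below 3%.

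Over the 58 genes the total length under H3K27me3 peaks was close in the 3 lists. It was 63.7, 63.7 and 62.2 kb, ratios to NC of 0.999 and 0.976, while over all genes of chromosomes 1 to 22 the ratios were 0.825 and 0.884. Within these sums, of the 23 genes with a peak in NC or ΔLINC00641, 17 were covered over more bases in ΔLINC00641 and 6 over fewer, against 44.5 and 55.5% of all genes with a peak in either list. In ΔSETD5-AS1 12 of 23 were covered over more bases and 11 over fewer, against 45.8 and 54.2%. Because both knockdown lists were set against the same NC list, these counts are not independent of each other.

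A promoter peak is called lost when a gene had one in NC and none in the knockdown list, and gained in the opposite case. Of the 12 genes with a promoter peak in NC, 2 lost it in ΔLINC00641 (OLIG3 and MYOD1) and 1 lost it in ΔSETD5-AS1 (OLIG3), beside 17.3 and 21.5% of all genes with an NC promoter peak. Of the 46 genes without, 0 gained a promoter peak in ΔLINC00641 and 2 in ΔSETD5-AS1 (FOXB1 and OLIG1), beside 1.65 and 1.31% of all genes without. With so few genes, these counts lie within 1 or 2 genes of the background share. Over all genes, lost promoter peaks were weaker in NC than kept ones, with median folds of 3.04 against 3.86 in ΔLINC00641 and 2.92 against 3.93 in ΔSETD5-AS1. OLIG3 and MYOD1, with 3.23 and 2.39, were likewise below the median of 3.89 for the 12 genes.

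The strongest promoter peak of a gene was then set against the strongest one in NC. The paired peaks overlapped at 9 of 10 promoters in ΔLINC00641 and at 11 of 11 in ΔSETD5-AS1, but their summits lay up to 1776 and 3415 bp apart, so a pair can join different parts of a domain. At FOXQ1 the NC peak was paired with an upstream peak of ΔLINC00641, while the peak there that overlapped it had a fold of 3.05. At promoters that kept their peak, the median log2 ratio of fold to NC was −0.05 over 10 genes in ΔLINC00641, of which 4 were higher and 6 lower, and −0.16 over 11 genes in ΔSETD5-AS1, of which 5 were higher and 6 lower. Over all genes the medians were 0.12 and −0.12. The SD between single genes was 0.37 and 0.49. Counted as summit fragments over the genome-wide level, the median log2 ratio was 0.28 and −0.20, against 0.28 and −0.14 over all genes. The sign thus changed for ΔLINC00641 when the local input was left out, and local input was higher than in NC at 7 of the 10 promoters and lower at 3. None of the 21 intervals of the fragment ratio excluded 1, and the ratios ran from 1.02 to 1.44 in ΔLINC00641 and from 0.701 to 1.18 in ΔSETD5-AS1.

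**Figure D4:**
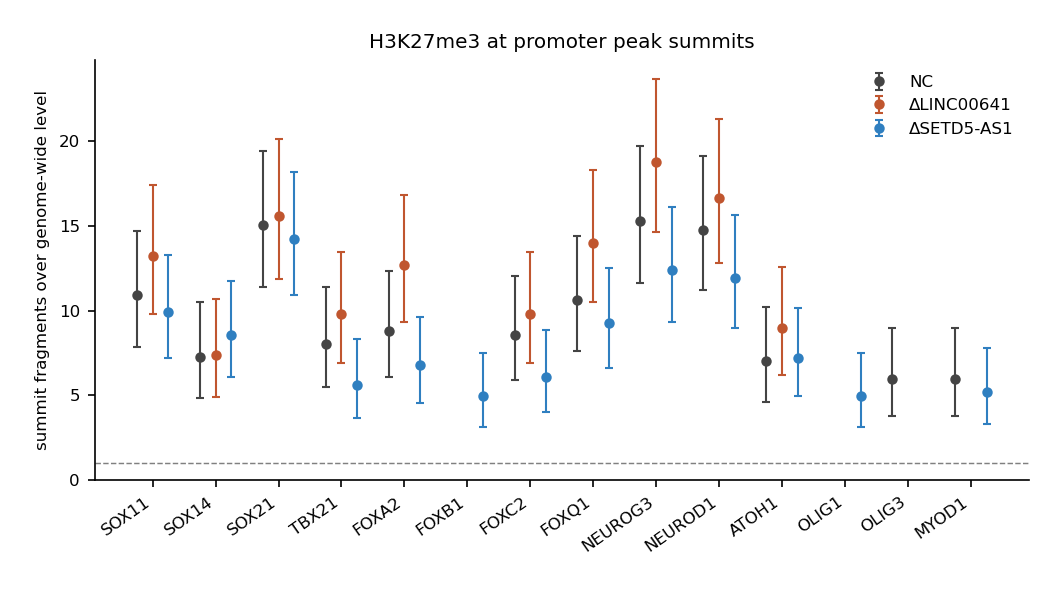
Fragments at the summit of the strongest promoter H3K27me3 peak divided by the genome-wide level of the list (vertical axis), for the 14 genes with such a peak in any list; points are pooled lists and bars 95% Poisson intervals for counting error. The points of ΔLINC00641 lie at or above those of NC and the points of ΔSETD5-AS1 mostly below them, and the intervals overlap for each gene.

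H3K9me3 was scarcer at these promoters. It was present at 6 of the 58 promoters in NC (TBX15, TBX20, FOXE1, NEUROD1, OLIG3 and HAND2) and at 5 in ΔLINC00662 (SOX7, SOX14, SOX17, OLIG3 and HAND2), which is 10.3 and 8.62% beside 5.37 and 4.30% of all genes. Over the whole window 17 and 23 genes held a peak, 29.3 and 39.7% beside 38.1 and 32.4%. Their median promoter fold was 2.4 in NC and 3.03 in ΔLINC00662, against 3.07 and 3.15 over all genes with a promoter peak. Only HAND2 had a −log10 q of at least 5 in NC, and only HAND2 and SOX17 in ΔLINC00662, so most of the calls described next were weak.

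HAND2, a bHLH factor of heart and limb, was the only one of these genes with more than 20% of its window under H3K9me3, with 37.4% in NC and 27.9% in ΔLINC00662, beside 1.91 and 1.11% of all genes that passed 20%. It held 5 peaks in each list. Its promoter peak went from 1311 to 329 bp and from 76 to 38 fragments at the summit, with folds of 3.38 and 2.77. Local input at these summits was 5.07 and 3.73 times the genome-wide level. Relative to the genome-wide level, with local input left out, the fragment ratio was 0.613 (0.404 to 0.917). This was the only interval among the 23 promoter pairs of either mark that excluded 1. The part of the input in this ratio was not tested. At the other 4 peaks of HAND2 the summits stood at 14.9, 12.8, 14.2 and 14.2 times the genome-wide level in NC. At the overlapping peaks of ΔLINC00662 they stood at 13.1, 9.43, 14.3 and 11.7 times. These values were lower in ΔLINC00662 at 3 of the 4 peaks and close at the other. In the same order, the folds over local input were 2.186, 2.622, 2.667 and 1.923 in NC. In ΔLINC00662 the folds were 2.435, 2.046, 3.706 and 2.003, higher at 3 of the 4 peaks and lower at the other. The direction at these peaks thus depended largely on whether local input was left out. By covered share HAND2 ranked 146 of 19229 genes in NC and 105 in ΔLINC00662.

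OLIG3 kept a short promoter H3K9me3 peak in both lists, with folds of 1.98 and 3.03 from 31 and 27 fragments and local input at 3.53 and 2.36 times the genome-wide level. Its fragment ratio was 1.07 (0.613 to 1.85), which includes 1. TBX15 and TBX20, of limb and skeletal mesenchyme and of the heart, had promoter folds of 2.53 and 2.05 in NC, and FOXE1, of the thyroid, had 2.27. None of these 3 had a promoter peak in ΔLINC00662. Each still held a peak elsewhere in its window, and in FOXE1 it lay from 1683 to 2013 bp inside the gene with a fold of 3.76. NEUROD1 had a promoter fold of 2.67 in NC and none in ΔLINC00662, where its nearest peak ended at −1396 bp.

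The genes with a promoter H3K9me3 peak in ΔLINC00662 but not in NC were all SOX genes with the promoter of 1 kb and the full lists. With a promoter of 2.5 kb TBX4 and FOXD3 were gained too, and with equal numbers of strongest peaks OLIG3 was. SOX17, a factor of endoderm and vessel walls, had the highest fold of them, 4.85 from 25 fragments, and no peak in its window in NC. SOX7, which also acts in vessel walls, had a fold of 3.41 at its promoter, and in NC a peak of fold 4.35 that ended at −2521 bp. SOX14 had a fold of 2.82 from 22 fragments and no H3K9me3 peak in NC. These 3 gains and the losses at TBX15, TBX20, FOXE1 and NEUROD1 were 4 of 6 promoters lost and 3 of 52 gained, beside 43.2 and 1.32% of all genes.

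**Figure D5:**
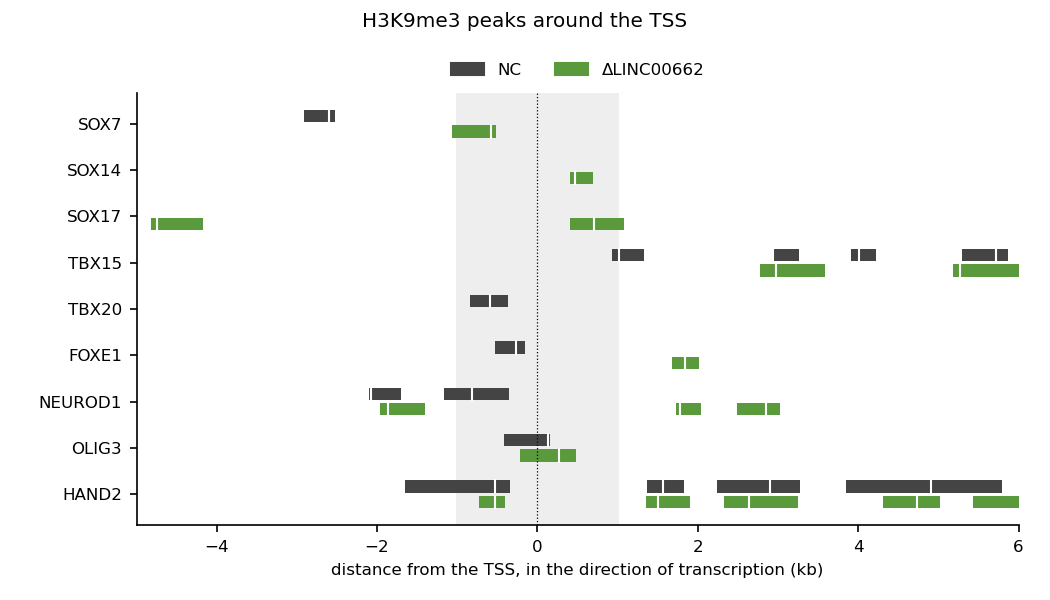
H3K9me3 peaks (bars) and summits (white lines) by distance from the TSS in kb for the 9 genes with a promoter peak in either list; the grey band is the promoter. HAND2 carried peaks on both sides of the TSS in both lists, and its upstream peak was shorter in ΔLINC00662 (329 bp) than in NC (1311 bp).

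The long genes SOX6 and SOX5, with no promoter H3K9me3 peak, held 7606 and 4417 bp in NC and 4907 and 3585 bp in ΔLINC00662, a small part of each window (at most 0.971%). GATA4, a heart and endoderm factor, held an intronic peak in both lists with folds of 3.97 and 3.45, and GATA3 a peak upstream in NC only. Among genes with H3K27me3 domains, SOX21 and NEUROG3 held an H3K9me3 peak only in ΔLINC00662, of 307 and 889 bp. The H3K9me3 length over the 58 genes was 29.0 kb in NC and 27.8 kb in ΔLINC00662, a ratio of 0.960, against 0.582 over all genes. Of 26 genes with a peak in either list, 14 were covered over more bases in ΔLINC00662 and 12 over fewer, against 21.4 and 78.6% of all such genes. The ratio was 1.27 when both H3K9me3 lists were held to the same number of strongest peaks, and 0.597 with a −log10 q of at least 5.

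Both marks were set side by side in the NC lists. Peaks of both lay in the windows of 6 genes (SOX6, TBX5, FOXB1, NEUROD1, OLIG3 and TWIST1), beside 8.66% of all genes, and shared base pairs in 2 of them, NEUROD1 with 1208 bp and OLIG3 with 366 bp, beside 3.45% of all genes. In both genes the shared bases lay under the promoter H3K9me3 peak or just upstream of it, and these peaks had folds of 2.67 and 1.98. The 6 and 2 genes are 10.3 and 3.45% of the 58, near the background.

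No H3K27me3 or H3K9me3 peak lay in the windows of 19 genes in any of the 5 lists. They were the neural and neural crest genes SOX1, SOX2, SOX8 and SOX10, the cartilage and testis gene SOX9 and the vessel gene SOX18, TBX3, GATA2, GATA5 and GATA6, the forkhead genes FOXA1, FOXC1, FOXE3, FOXF2, FOXL1, FOXL2 and FOXI1, and the bHLH genes OLIG2 and HAND1. The share of all genes with no peak in any list was not computed, so the count of 19 has no background. The windows searched here were also shorter than usual, and a short window holds a peak less easily. Promoter base composition was compared between genes with and without a promoter peak. Within 1 kb of the TSS the median GC content was 62.7% for the 12 genes with a promoter H3K27me3 peak in NC and 62% for the 46 without, against 55.1% for all genes of chromosomes 1 to 22. For H3K9me3 it was 57.4% for the 6 genes with a promoter peak and 62.7% for the 52 without in NC, and 59.0 and 62.6% for 5 and 53 genes in ΔLINC00662. Over all genes of chromosomes 1 to 22 it was likewise lower with a promoter H3K9me3 peak. There it was 51.7% with and 55.3% without in NC, and 51.6 and 55.3% in ΔLINC00662.

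Of 73 other genes of the same families on chromosomes 1 to 22, 10, 7 and 9 had a promoter H3K27me3 peak, 13.7, 9.59 and 12.3%, beside the 6.78, 7.15 and 6.55% of all genes. H3K9me3 was at 3 of their promoters in NC and 5 in ΔLINC00662, 4.11 and 6.85% beside 5.37 and 4.30%. Of 13 broadly expressed genes on these chromosomes, 0 had a promoter peak of either mark in any list. Of 20 genes of the Polycomb machinery on them, H3K27me3 was at 1, 3 and 1 promoters, CBX8 at a fold of 2.90 in NC, and H3K9me3 at 1 and 0.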

How the data were processed

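ChIP-seq of H3K27me3 and H3K9me3 was measured in 30 HEK293T samples, grouped by their titles. Per the study's methods and the submitters' processing notes, the authors used Cutadapt 3.3 for trimming, Bowtie2 2.4.2 for alignment (genome build hg19) and GATK to remove PCR duplicates. Replicates were then merged, and MACS2 2.2.7.1 called peaks of each ChIP group over its input. For each peak the authors deposited the fold enrichment, a ratio of summit fragments to local input, each with a pseudocount of 1. They deposited a −log10 p-value and a −log10 q-value beside it. A deposited list holds only regions that passed the caller's threshold.

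Peaks were joined to GENCODE 44 genes mapped to GRCh37. The TSS was the 5′ end of the gene record. The canonical transcript served only to place summits in exons or introns. All peak ends fell within the chromosome lengths of GRCh37. Fragments and local input were solved from fold enrichment and p-value. The fragment numbers were whole within 0.05 for 99.9% or more (rounded) of the peaks of each list. Depth was not measured but estimated from the genome-wide level and the shortest peak of each list, with an assumed genome size. The estimates were about 39.1, 38.1 and 45.0 M fragments (1 M is 1000000) for H3K27me3 NC, ΔLINC00641 and ΔSETD5-AS1. For H3K9me3 NC and ΔLINC00662 they were about 42.2 and 34.6 M. Poisson and exact binomial 95% intervals cover counting error only. The calculations were tested on simulated peaks. Versions were 3.11.15 for Python, 2.4.6 for numpy, 2.3.3 for pandas, 1.17.1 for scipy and 3.10.9 for matplotlib.

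No test was made, since each group is 1 pooled list. All 58 genes were accounted for. Those named in full were the highest and lowest promoter fold per family, every gene whose promoter call differed among H3K27me3 lists, every gene with a promoter H3K9me3 peak, and genes with both marks. The genes and lists were chosen with earlier results of these data known. The results were recomputed with a stricter q (−log10 q of 5 or more), with lists held to the same number of strong peaks, with a promoter of 2.5 kb, any annotated TSS or the summit inside the promoter, with no flank or a flank of 10 kb, and with fragments in place of fold enrichment.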

Additional observations from a re-analysis of the deposited data

How the results depend on the processing

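No paired analysis was possible because each list joins its 3 replicates into 1 set of peaks, and for the same reason no replicate was left out. Of 89 recomputed values, 58 stayed within 1.5 times the value given (counts and length ratios) or within the SD between genes (log2 ratios), 21 moved further and 10 changed direction.

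With a −log10 q of at least 5, promoter peaks numbered 8 in ΔSETD5-AS1, 1 in H3K9me3 NC and 2 in ΔLINC00662, lost and gained promoters were 0 and 1 in ΔLINC00641, 2 and 1 in ΔSETD5-AS1 and 0 and 1 in ΔLINC00662, the covered ratio was 1.05 in ΔLINC00641 and 0.597 in ΔLINC00662, the median log2 fold ratio was −0.29 in ΔLINC00662, and 0 genes had both marks. With equal numbers of the strongest peaks (86099 for H3K27me3 and 60273 for H3K9me3), H3K9me3 NC had 3 promoter peaks, 2 promoters were lost in ΔSETD5-AS1 and 2 in ΔLINC00662, the covered ratio was 1.03 in ΔLINC00641 and 1.27 in ΔLINC00662, the log2 fold ratio was −0.29 in ΔLINC00662, and 1 gene had both marks. With a promoter of 2.5 kb, ΔLINC00662 had 10 promoter peaks of which 6 were gained, 0 promoters were lost in ΔLINC00641, and the log2 fold ratio was 0.0113 in ΔSETD5-AS1. Any annotated TSS gave 4 gained promoters in ΔSETD5-AS1, and a summit inside the promoter gave 1 in ΔLINC00641. The covered ratio of ΔLINC00641 was 1.13 with the gene span alone and 1.04 with a flank of 10 kb, and with the gene span alone 0 genes had both marks. Fragments in place of fold enrichment gave log2 ratios of 0.28 in ΔLINC00641 and −0.31 in ΔLINC00662. The cause of these changes was not tested. The covered ratio of ΔLINC00641 lies so near 1 that its direction carries no weight, and the log2 ratio of ΔLINC00662 rests on 2 genes.

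Summits of 19 to 76 fragments limit the precision of a single promoter, and most promoter H3K9me3 peaks lie near the calling threshold.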
